A study of Mus musculus with 48 samples.

Results

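Editing of the transcripts of 3 AMPA receptor subunit genes, Gria2, Gria3 and Gria4, was followed across tissues in mice with and without editing by ADAR1. All positions that the tables assign to these genes were taken, whatever their annotation, which gave 142 of 48715 positions. Gria2 held 51 of them, Gria3 31 and Gria4 60. By annotation 56 change the encoded amino acid, 31 are synonymous and 55 are intronic. The fourth subunit gene, Gria1, has 1 position in the tables, and it was never read more than 100 times.

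Inosine pairs like guanosine, so an edited adenosine appears as G in the reads. The editing level is edited reads over all reads at a position, and it was taken where more than 100 reads covered the position. The assay, mmPCR-seq, amplifies stretches of cDNA around known sites with pooled primers and sequences the products. The 48 libraries came from brain, 3 lymphoid or haematopoietic tissues (BM, spleen, thymus), heart, kidney, liver and small intestine of male C57BL/6 mice at 12 weeks of age, with 3 independent biological replicates for each genotype in each tissue. The genotypes were Adar1+/+ Ifih1-/- (WT), with ADAR1 that can edit, and Adar1E861A/E861A Ifih1-/- (E861A), with a point mutant ADAR1 that is made but does not deaminate adenosine. Both genotypes lack MDA5, the sensor of double-stranded RNA that Ifih1 encodes, and no change to ADAR2 is named in the labels. The mutation is present in every cell of these mice, and RNA came from homogenized tissue, so that no level can be assigned to one cell type.

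AMPA receptors are tetrameric glutamate-gated channels that carry most of the fast excitatory transmission in the brain. Editing at the Q/R site of Gria2 exchanges a glutamine in the pore for arginine and makes channels that contain this subunit nearly impermeable to calcium. The R/G site of Gria2, Gria3 and Gria4 lies in the ligand-binding domain, just before the alternatively spliced flip and flop exons, and its editing speeds recovery from desensitization. ADAR2 is the enzyme known to be required for the Q/R site.

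Of the 142 positions 71 were read more than 100 times in at least 1 library, 40 of them in Gria2, 14 in Gria3 and 17 in Gria4. The other 71 never were, and the 36 intronic positions of Gria4 were not covered by any read. All 71 that were read passed in the brain. A level above 1% in at least 1 library was seen at 23 positions, and the other 48 did not exceed 0.903% in any library. The 9 sites that were edited in brain, with a level above 1% in either genotype, carry the results below. They are 4 recoding sites, 4 synonymous sites and 1 intronic site, and their surroundings are shown because the neighbouring bases differ so little between the 3 R/G sites. Each run is the transcript strand of mm9 (NCBIM37), 5′ to 3′, and the capitals mark the edited adenosines.
Gria2 Q/R and Gln, chr3:80510822-80510846, minus strand: gtgcctttatgcAgcaAggatgcga
Gria2 R/G, chr3:80496196-80496220, minus strand: ggatcctcattAAggtgggtggaat
Gria4 R/G, chr9:4455994-4456018, minus strand: ggttcctcattAAggtgggtggaat
Gria3 R/G, chrX:39007417-39007441, plus strand: ggctcagcattAAggtgggtggaat
Gria3 intronic, chrX:39007453-39007477, plus strand: atccgtgttgttAtagtattccacc

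In the Q/R window the first capital is the Q/R adenosine (position 80510834 of chromosome 3) and the second is a synonymous glutamine site 4 bases downstream (80510830), called the Gln site below. Both lie in a coding exon of Gria2, 24 and 20 bases before its end. In each R/G window the first capital is a synonymous leucine site (Leu) and the second, its neighbour, is the R/G adenosine. In all 3 genes this adenosine is the base before the last base of its coding exon, at position 80496208 in Gria2, 4456006 in Gria4 and 39007429 in Gria3, and the first bases of the intron follow. The R/G windows of Gria2 and Gria4 were identical at 24 of 25 bases, and those of Gria3 matched Gria2 and Gria4 at 22 of 25. The intronic site of Gria3 (39007465) lies 36 bases downstream of the R/G site, and 1 annotated transcript reads through this part of the intron as exon.

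The base before the edited adenosine was A at 44.4% and T at 44.4% of the 9 sites, C at 11.1%, and G at none. At all 3 exon ends it was A before the R/G site and T before its Leu neighbour. These windows nearly match, so the 9 sites are not independent. Among the 799 sites of other genes edited in brain G came before the site at 11.1%, and among the 61 member positions that were not edited but were read in at least 2 brain libraries of each genotype at 24.6%. The base after the site was G at 55.6% of the 9 sites, at 23.0% of the 61 unedited ones and at 45.3% of the 799. Of the R/G sequences from 30 bases before to 70 bases after the site, the RNAfold program predicted a hairpin of -42.7 kcal/mol for Gria2 and -41.4 for Gria4, with Gria3 between them. In all 3 predictions the R/G adenosine was unpaired next to a paired base, whose partner lay 57 bases downstream of the site in Gria2 and Gria4 and 54 in Gria3. These are descriptions of the sequence, and no test was made on 9 sites.

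Coverage summed over all positions was 6802358 to 8642824 in the brain libraries and 1861831 to 11394093 over all 48. Of 7 neuronal genes of the panel (Htr2c, Gabra3, Grik2, Kcna1, Cacna1d, Unc80 and Grm4), 6 to 7 were read more than 100 times in each brain library, and 1 to 7 in each library of the other tissues. No pair of libraries held identical coverage.

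In brain the 4 recoding sites were edited at high levels in both genotypes. The Q/R site of Gria2 was edited in nearly every read. Its level was 99.97% of 8703 reads, 99.78% of 10549 and 99.78% of 9012 in WT. In E861A it was 99.87% of 5500 reads, 99.95% of 5990 and 99.89% of 4568. The genotypes overlapped and all 6 libraries lay within less than 1 percentage point of each other. Among the 631 edited brain sites read in all 6 libraries, the Q/R site was the 1 site with a mean WT level above 99%.

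The R/G site of Gria4 came next. Its level was 87.9%, 89.1% and 97.4% in WT, and 87.2%, 94.2% and 87.8% in E861A, from 1772 to 3192 reads. WT replicate 3 was the highest and the genotypes overlapped.

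Gria2 R/G was read 71.6%, 75.7% and 74.4% edited in WT. In E861A it was 69.5%, 68.6% and 67.7%, from 1594 to 3435 reads over both genotypes. Each E861A value was lower than each WT value, with means of 73.9% ± 2.11 in WT and 68.6% ± 0.893 in E861A (SD, n = 3 each) and a difference of -5.29 percentage points. This was the only one of 8 member sites read in all 6 libraries whose genotypes did not overlap, and over all 631 edited sites read in all 6, E861A lay below WT at 11.6% and above it at 6.66%.

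Gria3 R/G varied most among the recoding sites. Its level was 61.7% of 792 reads, 42.9% of 494 and 69.2% of 1098 in WT. In E861A it was 62.0% of 1393 reads, 66.6% of 1755 and 72.6% of 1441. WT replicate 2 was the lowest and also the least covered, and the genotypes overlapped at 58.0% ± 13.6 in WT and 67.1% ± 5.30 in E861A (SD, n = 3 each).

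**Figure D1:**
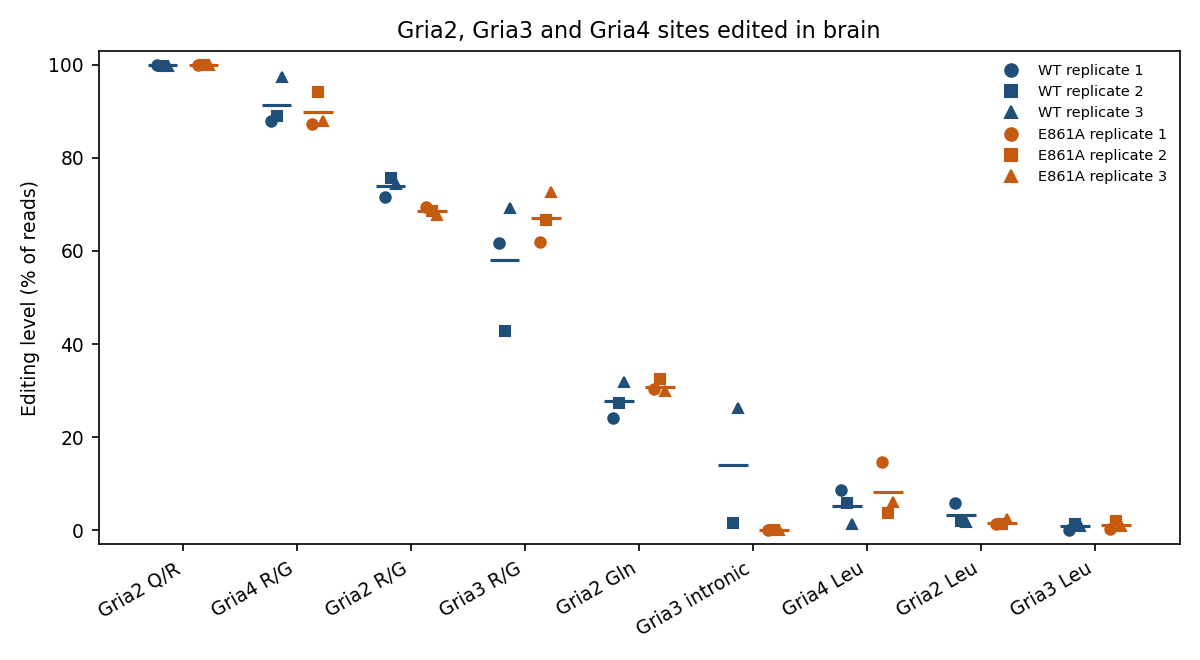
Editing level in percent of reads at the 9 Gria2, Gria3 and Gria4 sites edited in brain, one marker per library and a bar at the mean of each genotype. The genotypes separate at the Gria2 R/G site, where E861A lies at 67.7% to 69.5% and WT at 71.6% to 75.7%, and overlap at the other sites except the Gria3 intronic one, where 2 WT libraries were read.

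The synonymous sites had lower levels. The Gln site of Gria2 was edited at 24.2%, 27.4% and 31.9% in WT and at 30.3%, 32.5% and 29.8% in E861A, on the same reads that were almost fully edited at the Q/R site. The Leu neighbour of the Gria4 R/G site was at 8.59%, 5.95% and 1.42% in WT and at 14.7%, 3.83% and 6.00% in E861A. The Leu neighbour in Gria2 was read edited in 5.86%, 1.93% and 1.86% of WT reads, and in 1.27%, 1.32% and 2.41% of E861A reads. Its counterpart in Gria3 ranged from 0.0969% to 2.02% over the 6 libraries. Genotypes overlapped at all 4 of these sites. In every brain library each Leu site lay far below its R/G neighbour.

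The intronic site of Gria3 was the least even one. It was not covered in WT replicate 1, and was edited in 1.65% of 121 reads in WT replicate 2 and in 26.3% of 647 in WT replicate 3. In E861A it was edited in 0 of 875 reads, which allows a level of up to 0.343%, in 0.0942% of 1062, and in 0 of 900, which allows up to 0.333%. A single WT library therefore held nearly all of the editing at this site in brain. All intervals and limits of this kind cover counting error only, since PCR reads without molecular identifiers are not independent molecules.

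Whether removing ADAR1 editing changed these levels in brain was tested with limma on log2((level + 0.01)/(1 - level + 0.01)), a scale on which 1 unit is close to a factor of 2 in the ratio of edited to unedited reads, except near 0 and 100%, where the offset of 0.01 sets the size of the value. The fit covered the 808 sites edited in brain with Benjamini-Hochberg adjustment over all of them. None of the 9 member sites passed an adjusted p of 0.05, and neither did any other site (percent called 0). An unadjusted p under 0.05 was found at 56 of the 808 (6.93%), among them 1 member, the intronic site. The paper names sites in Htr2c as known to depend on ADAR1. Htr2c sites whose means differed by -73.19 and -70.06 percentage points between E861A and WT were not called here either. The lack of a call in this fit is therefore no evidence that a level was unchanged. For the Q/R site the log2 change was 0.08 with a 95% interval of -0.90 to 1.06 (limma adjusted p = 0.959), and it was 0.32 with an offset of 0.001 and 0.02 with 0.05. The Gria4 R/G site changed by -0.40, with an interval of -2.15 to 1.35 (limma adjusted p = 0.819), and its sign turned to 0.24 without WT replicate 3. For the Gria2 R/G site the change was -0.36, with an interval of -1.44 to 0.71 (limma adjusted p = 0.7345). At the Gria3 R/G site it was 0.54, with an interval of -0.91 to 1.99 (limma adjusted p = 0.708), falling to 0.10 without WT replicate 2 and reaching 0.88 without WT replicate 3. At each of the 3 R/G sites the interval reaches past a factor of 2 in the ratio in at least 1 direction.

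The intronic site of Gria3 had a log2 change of -3.27 ± 1.28 (SE) over 2 WT and 3 E861A libraries, with limma adjusted p = 0.653. The site passed the edited limit through WT alone, so that only a lower level in E861A was possible. With E861A at or near 0 edited reads the offset sets this size, which was -5.999 with an offset of 0.001 and -1.74 with 0.05. With one spread estimated over all 48 libraries the same change had an adjusted p of 0.00162, in a fit that called 217 brain sites where the fit on the brain libraries alone called 0. The study's methods call a site on an unadjusted F test at a limit of 0.1 together with means at least 5 percentage points apart, and 1 member met both, the Gria2 R/G site (F test p = 0.0163, which is not an exact test). That criterion called 46 of the 808 brain sites lower in E861A, or 5.69%.

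Highly edited sites were set beside the members as a description. Of the sites read in all 6 brain libraries 30 had a mean WT level above 50%, and the 4 recoding members were among them. Over the 30 the median difference between E861A and WT was -4.65 percentage points, with 21 lower in E861A. Over the 4 members it was -0.818.

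The order of the mean WT levels in brain was Q/R of Gria2, R/G of Gria4, R/G of Gria2, R/G of Gria3, the Gln site of Gria2, the intronic site of Gria3, and the Leu sites of Gria4, Gria2 and Gria3. Neighbours in this order were compared within each of the 6 brain libraries. Since 3 of these libraries set the order, the steps describe how regular it was. The Q/R site lay above the Gria4 R/G site in 6 of 6 libraries, by 9.27 ± 4.23 percentage points (SD). Gria4 R/G lay above Gria2 R/G by 19.4 ± 4.50 points in 6 of 6. The third step, from Gria2 R/G to Gria3 R/G, held in 5 of 6 libraries, at 8.715 ± 12.8 points.

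Gria3 R/G lay above the Gln site of Gria2 by 33.15 ± 9.39 points in 6 of 6 libraries. The Gln site lay above the Gria3 intronic site in 5 of 5 libraries, by 24.8 ± 11.0 points. The intronic site lay above the Gria4 Leu site in 1 of 5, at -0.77 ± 15.0 points. Gria4 Leu lay above Gria2 Leu in 5 of 6, by 4.30 ± 4.72 points, and Gria2 Leu above Gria3 Leu in 5 of 6, by 1.49 ± 2.22 points. In an exact two-sided sign-flip permutation test over the libraries no step passed 0.05 after adjustment over the 8 pairs (smallest adjusted p = 0.0833). The smallest unadjusted p that this test allows is 0.031 with 6 libraries and 0.0625 with 5. The steps that held in 6 of 6 libraries were already at that limit. Some of the same libraries also set the order, so the test cannot decide how regular it was.

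As a description, the SD between brain replicates was set beside the binomial SD at the same coverage, which treats reads as independent molecules. It was 10.4 times the binomial SD at the Gria4 R/G site in WT, 7.44 times at the Gria3 R/G site and 2.73 times at the Gria2 R/G site. In E861A the ratio was 5.69, 4.39 and 0.833 at these sites. For the Q/R site the SD was 0.107 percentage points in WT and 0.0404 in E861A, which is 2.57 and 0.962 times the binomial SD.

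The sites of other genes with the most similar levels were found by the root mean square difference over the 6 brain libraries, among 2895 positions read more than 100 times in all of them. For the Q/R site the nearest were Cyfip2 Lys-to-Glu (position 46086145 of chromosome 11) and Grik2 Tyr-to-Cys (48992582 of chromosome 10), 20.2 and 20.6 percentage points away, so that no site of another gene was close to it. Grik2 encodes a kainate receptor subunit, and Cyfip2 a regulator of actin. Nearest to the Gria2 R/G site was a 3′ UTR site of Tox4 (52913904 of chromosome 14), at 2.95 points, with Cyfip2 next at 9.57. For Gria3 R/G it was Tmem63b Gln-to-Arg (45799898 of chromosome 17), at 11.8 points, followed by Tox4 at 13.5. The Gria4 R/G site had Cyfip2 at 11.0 points and Grik2 at 13.8.

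Other genes of the glutamate receptor family, of the AMPA receptor complex and of the editing machinery were read in the same brain fit. Of 23 other glutamate receptor genes 19 had positions in the tables, 361 in all, but positions of only Grik1 and Grik2 were read in all 6 brain libraries. Their 15 edited sites included none past the threshold, with a median difference of 0.513 percentage points, beside -0.838 over all 808 sites. Of 12 auxiliary subunit genes, which encode proteins that traffic and modulate AMPA receptors, 9 had positions, and none of their 37 positions was read more than 100 times. Among the editing enzymes 10 sites were edited in brain and none passed the threshold, with a median difference of -3.08 points.

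The amount of amplified product was compared as coverage scaled to 1000000 of the library's summed coverage. Member positions in brain fell into 8 stretches separated by more than 1000 bases of the genome. In all 8 the 3 E861A libraries lay below the 3 WT libraries. At the stretch with the Q/R site the median coverage was 868, 966 and 661 in WT and 506, 455 and 404 in E861A, a ratio of 0.547. For the stretch with the Gria2 R/G site it was 482, 468 and 348 in WT and 302, 261 and 232 in E861A, a ratio of 0.612.

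The stretch with the Gria3 R/G site had a ratio of 0.730, over the 3 of its 10 positions that were read in all 6 libraries, and the stretch with the Gria4 R/G site 0.645. The remaining 4, which held no site edited in brain, had ratios of 0.607 to 0.692. The exact permutation p was 0.1 for each stretch, the smallest that 3 against 3 allows (adjusted p = 0.1 over the 8). By position, 61 of the 63 member positions read in all 6 libraries had E861A below WT and 1, the Gria3 R/G base, above, against 33% below and 12.5% above among the 2958 positions read in all 6. Positions of 1 stretch share reads and are not independent. The intronic Gria3 base, which was not read in all 6, had 30.4 ± 39.4 in WT and 129 ± 1.16 in E861A (SD, n = 3 each) on the same scale.

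The brain libraries also differed between genotypes beyond these genes. Positions with more than 100 reads numbered 3613 to 4857 in WT and 5016 to 5931 in E861A. The 7 neuronal genes were compared by the highest coverage of any of their positions, on the same scale. Htr2c (584.8 to 920.1 in WT, 380.4 to 503.9 in E861A), Kcna1 (669.7 to 719.2 and 516.6 to 545.9), Grik2 (442.4 to 590.9 and 364.5 to 429.3) and Unc80 (356.3 to 413.1 and 288.9 to 345.7) were lower in every E861A library than in any WT library. Gabra3 (36.9 to 113 and 280.9 to 347.4) and Cacna1d (213 to 218.9 and 219.8 to 259.2) were higher, and Grm4 overlapped. Their part in the coverage of Gria2, Gria3 and Gria4 was not tested. In whole tissue, fewer cells that express a gene and less RNA per cell cannot be told apart, and the efficiency of amplification was not tested.

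**Figure D2:**
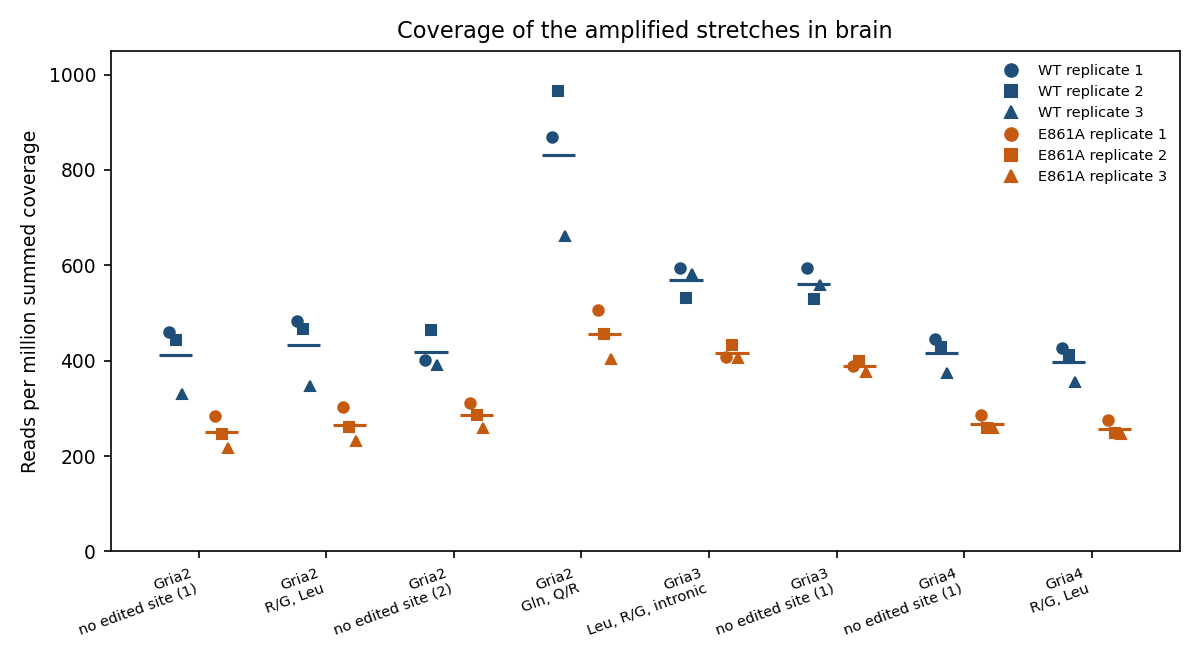
Median coverage, scaled to a summed coverage of 1000000, of 8 amplified stretches of Gria2, Gria3 and Gria4 in brain, one marker per library and a bar at the genotype mean. In every stretch the E861A libraries lie below the WT libraries, from 404 to 506 against 661 to 966 at the stretch with the Q/R site.

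At the end of the Gria3 exon coverage changed abruptly from one base to the next. In brain the R/G base was covered by 19.2%, 12.5% and 20.8% of the reads of the neighbouring Leu base in WT, and by 39.7%, 40.2% and 39.9% in E861A. Each E861A share was higher than each WT share, with means of 17.5% ± 4.40 in WT and 39.95% ± 0.248 in E861A (SD, n = 3 each, two-sided exact permutation p = 0.1, the smallest possible). For the R/G sites of Gria2 and Gria4, which lie at the same place in their exons, the corresponding shares in brain were 97.6% to 99.6% and 106% to 110%. A level at the Gria3 R/G site of brain therefore describes 12.5% to 40.2% of the reads that reach the neighbouring base.

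Coverage of the intronic Gria3 site in brain was 0%, 3.07% and 12.3% of that of the Leu base in WT and 25.0%, 24.3% and 24.9% in E861A. The genotypes did not overlap (two-sided exact permutation p = 0.1, the smallest possible). Relative to the Leu base, coverage past the exon end was thus lower in WT than in E861A brain. How this bears on the levels at the R/G and intronic sites was not tested.

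In the other tissues the R/G base of Gria3 was covered at a median of 99.3% of its Leu neighbour over 38 libraries, and 27 of them were above 90%. The lowest were small intestine E861A replicates 3 and 2, at 3.26% and 48.7%, followed by liver WT replicate 3 at 56.4% and small intestine WT replicate 1 at 59.4%. Kidney stood between, with R/G coverage at 75.8%, 73.7% and 79.0% of the Leu base in WT and at 85.0%, 68.0% and 76.1% in E861A. Coverage of the intronic base outside brain spanned 0% to 93.1% of the Leu base, a range that takes in that of the brain. In spleen it was 49.4%, 89.9% and 90.4% in WT and 29.6%, 69.0% and 9.30% in E861A. In heart it was 0.227% and 91.9% in WT replicates 1 and 2, and 93.1%, 89.3% and 90.5% in E861A. How this bears on the R/G levels of these tissues was not tested.

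**Figure D3:**
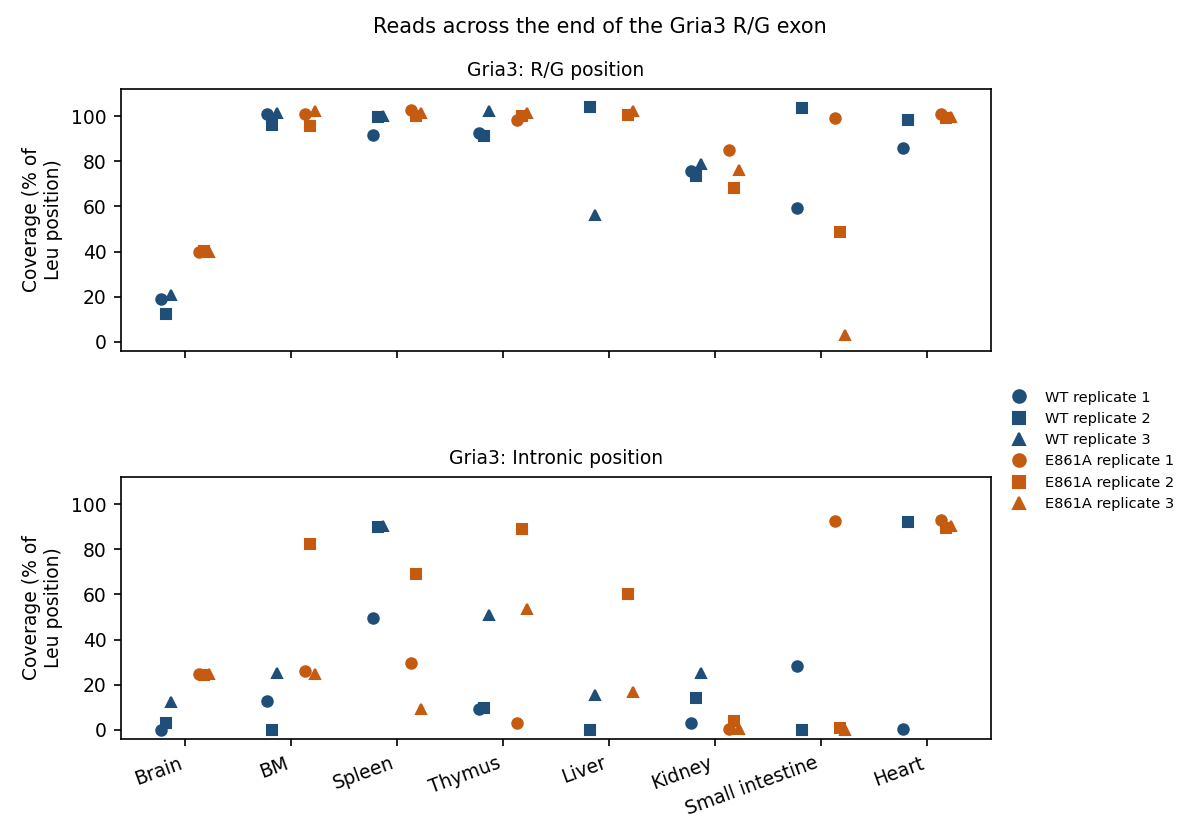
Coverage of the Gria3 R/G position (upper panel) and of the intronic position 36 bases downstream (lower panel) in percent of the coverage of the neighbouring Leu position, for each library whose Leu position was read more than 100 times. Brain lies at 12.5% to 40.2% in the upper panel, and most libraries of the other tissues lie near 100%.

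Outside the brain the Gria2 and Gria4 transcripts were read in few libraries, and the Gria3 R/G site in most. Of the 42 libraries of the 7 other tissues, 10 had more than 100 reads at the Gria2 Q/R site, 10 at the Gria2 R/G site, 4 at the Gria4 R/G site and 37 at the Gria3 R/G site. Where the Q/R site was read, it was edited in nearly all reads, in 8 WT and 2 E861A libraries alike. In the 3 kidney WT libraries it was 100%, of up to 473 reads, and in kidney E861A replicate 2 it was 99.9% of 776. Small intestine had 99.9% of 2027 reads in WT replicate 1 and 100% of 939 in E861A replicate 2. In single WT libraries it was 100% of 947 reads in BM, 99.8% of 2326 in liver, 100% of 478 in spleen and 99.6% of 479 in heart. The lowest Wilson 95% bound over the 10 libraries was 97.6%, for kidney WT replicate 2. Among the libraries below the minimum the best covered, thymus WT replicate 1, had 5 of 39 reads edited.

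The Gln site, 4 bases away on the same reads, was not edited alike. It was below 5% in 7 of the 10 libraries, at 31.1% of 2382 reads in liver WT replicate 3 and 22.4% of 2072 in small intestine WT replicate 1, and at 99.8% of 479 reads in spleen WT replicate 3. In kidney WT it was edited in 0 reads of all 3 libraries, which at their coverage allows levels of up to 0.609%, 1.84% and 1.45%. Against the WT brain mean of 27.9% this was a log2 change of -5.31 ± 0.590 (SE, n = 3 each, limma adjusted p = 0.0132), where 11.3% of 725 sites were called lower. With 0 edited reads in kidney the site passed the edited limit through brain alone, so that no other direction was possible, and the offset sets the size, which was -8.59 with an offset of 0.001 and -3.155 with 0.05. The call was lost without any one of the 3 kidney libraries, with adjusted p from 0.0836 to 0.124, and kept without each brain library.

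Levels of Gria2 R/G were split between libraries. It was edited in all 328 reads of kidney WT replicate 2 and in 99.8% of 1070 in heart WT replicate 3. Small intestine WT replicate 1 had 21.0% of 1247 reads, with a Wilson 95% interval of 18.8% to 23.4%. The other 7 libraries were below 5%, among them both thymus WT libraries, at 3.32% of 211 reads and 0.110% of 908 (12.4% of the 739 sites in that comparison were called lower than in brain), all 3 BM libraries read, at 0.947% to 1.34%, and small intestine E861A replicate 3, at 0.397% of 1258.

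From summed reads the Gria2 R/G level in thymus WT was 0.715%, so the site passed the edited limit through brain alone. Only a lower level was therefore possible, and the offset also bears on the size. The 2 thymus libraries set against 3 of brain had a log2 change of -6.97 ± 1.04 (SE, limma adjusted p = 0.0207). The call was kept in the 4 fits without 1 library that could be made (adjusted p 0.0239 to 0.0451). It was lost with no edited limit (0.0608), on untransformed levels (0.0556), with the quasi-binomial model (0.227) and with the replicate number as a block (0.1255). The R/G site of Gria4 was edited in 99.9% of 1116 reads in BM WT replicate 3 and in 99.5% of 885 in liver WT replicate 3. In spleen WT replicate 1 it was edited in 2.34% of reads, and in 1.41% of 213 in kidney E861A replicate 3. None of these 4 libraries lay within the range of the brain, 87.2% to 97.4%.

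**Figure D4:**
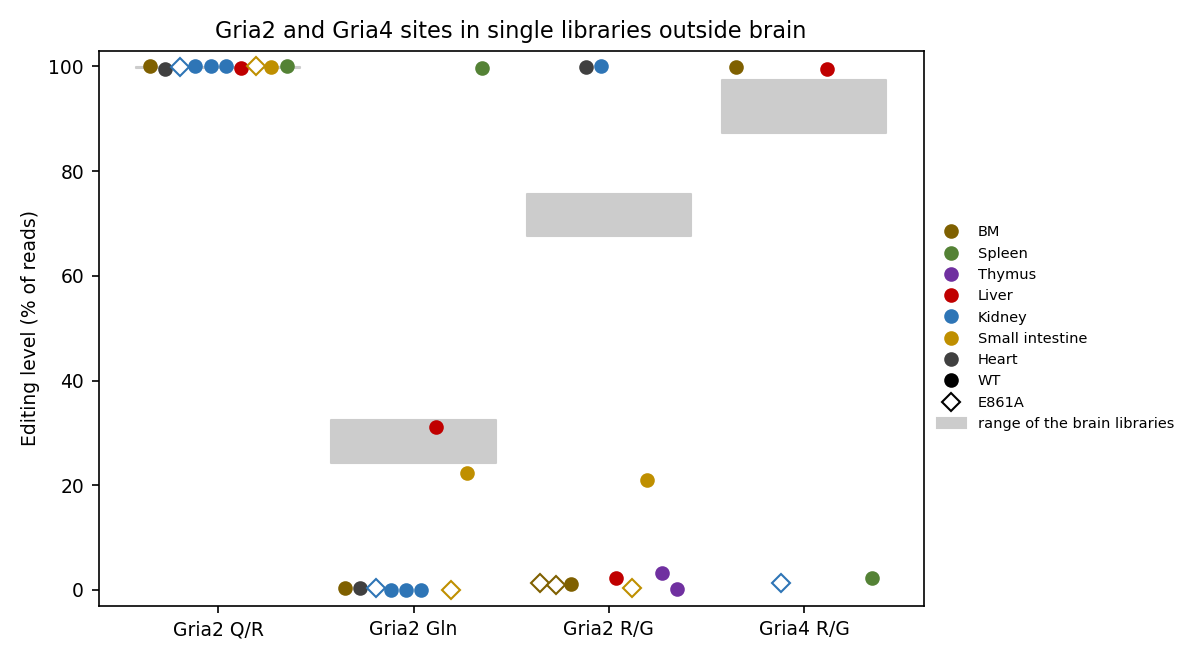
Editing level in percent of reads at 3 Gria2 sites and the Gria4 R/G site in each library outside brain with more than 100 reads, coloured by tissue, with filled circles for WT and open diamonds for E861A. The Q/R site lies at 99.6% to 100%, while the other sites lie mostly below 5% or above 99%; the grey bands span the 6 brain libraries.

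Sites of 1 library did not move together. In liver WT replicate 3 the Q/R site was at 99.8%, the Gln site at 31.1%, the R/G site of Gria2 at 2.29% of 437 reads, that of Gria4 at 99.5% and that of Gria3 at 38.8% of 556. Heart WT replicate 3 had the Gln site at 0.414% of 483 reads and the Gria2 R/G site at 99.8%. In BM WT replicate 3 the Gria4 R/G site was at 99.9%, its Leu neighbour at 14.9% of 1067 reads, and the Gria2 R/G site at 1.21% of 247. The number of transcript molecules behind these reads was not measured.

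Of the 4 recoding sites Gria3 R/G was read in the most libraries outside brain. It was below 5% in 27 of the 37 libraries outside brain, between 5% and 90% in 9, and at 100% in 1. In spleen it was 0.430%, 0.759% and 0.638% in WT and 0.266%, 0.303% and 0.118% in E861A. In heart it was 0.791% of 759 reads and 0 of 122 in WT, and at most 0.735% in the 3 E861A libraries. Thymus had 0.297%, 1.31% and 0 of 508 reads in WT, and 0.663%, 0.743% and 5.63% in E861A.

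BM had 0.233% of 2145 reads, 0 of 300 and 9.12% of 2895 in WT. Its E861A libraries had 0 of 2512 reads, 4.46% in the least covered library and 0.692% of 4045. Kidney WT was higher, at 3.26%, 9.11% and 20.6% of 675, 1043 and 2159 reads, and did not overlap with kidney E861A, at 0.9501%, 1.81% and 0.997%. Liver had 0.291% of 687 reads and 38.8% of 556 in WT, and 46.6% of 1012 and 82.1% of 989 in E861A. Small intestine had 36.2% of 1113 reads and 100% of 1582 in WT, and 0 of 421 and 7.67% of 743 in E861A. Below the minimum, and against the order of the genotypes in these tissues, small intestine E861A replicate 3 had 39 of 39 reads edited, liver WT replicate 1 26 of 29 and liver E861A replicate 1 3 of 19.

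**Figure D5:**
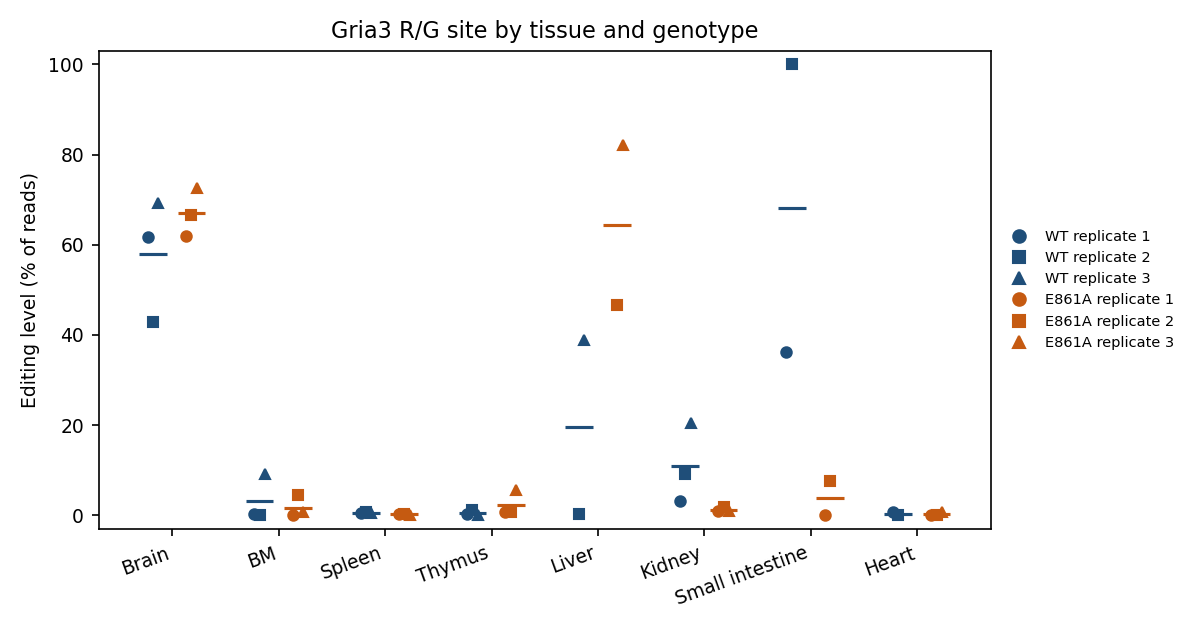
Editing level of the Gria3 R/G site in percent of reads by tissue, one marker per library with more than 100 reads and a bar at the mean of each genotype. Spleen, thymus, heart and BM lie below 10%, brain at 42.9% to 72.6%, and the libraries of liver and small intestine spread over most of the scale.

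In WT the Gria3 R/G site was compared between brain and each other tissue in separate limma fits. From summed reads its WT level was 0.586% in spleen, 0.754% in thymus and 0.681% in heart. In these tissues the site passed the edited limit through brain alone, so that only a lower level was possible. The offset of 0.01 also bears on the size there. The site was lower than in brain in spleen, with a log2 change of -6.44 ± 0.648 (SE, limma adjusted p = 0.00406), where 18.9% of the 694 sites tested were called lower. This call was kept without each of the 6 libraries in turn (adjusted p 0.00341 to 0.0388), but lost with the quasi-binomial model (0.210) and with the replicate number as a block (0.0593). It was also lower in thymus, by -6.60 ± 0.822 (limma adjusted p = 0.0141, 12.4% of sites called lower), but not called without thymus WT replicate 1 or 2 (adjusted p 0.0821 and 0.0672). In BM the change was -5.87 ± 1.15 (limma adjusted p = 0.0378, 7.01% called lower), and the call was lost without BM WT replicate 1 or 2 or brain WT replicate 2 or 3 (adjusted p 0.106, 0.0878, 0.0606 and 0.0616).

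Heart had -6.705 ± 1.085 over 2 libraries (limma adjusted p = 0.0451, 5.03% called lower), and the call was lost without brain WT replicate 2 or 3 or heart WT replicate 3 (adjusted p 0.0620, 0.0736 and 0.158). The last of these was not itself read at the site. Kidney had -3.67 ± 0.901 (limma adjusted p = 0.0455, 11.3% called lower), and the call was lost without any one of the 6 libraries (adjusted p 0.0561 to 0.182). In liver and small intestine, with 2 WT libraries each, no call was made. The interval of the log2 change was -8.59 to 0.72 in liver (limma adjusted p = 0.316, 1.11% called lower) and -7.31 to 12.2 in small intestine (limma adjusted p = 0.633, 6.83% called lower). Over all members and tissues 17 such comparisons were tested and 7 were called, all 7 lower than in brain. That was the only possible direction where a site passed the edited limit through brain alone. This held for Gria3 R/G in spleen, thymus and heart, Gria2 R/G in thymus and the Gln site in kidney. With no edited limit 4 were called, and with the quasi-binomial model or the replicate block none. These comparisons share the same 3 brain libraries, and coverage at the exon end differed between brain and the other tissues as given above.

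Between genotypes, 3 Gria3 sites could be tested in the other tissues, in 7 combinations of site and tissue, and 1 combination was called. This was the intronic Gria3 site in BM, at 11.3% of 275 reads and 5.41% of 721 in WT replicates 1 and 3, and at 0 of 644, 0 of 135 and 0 of 983 reads in E861A, which allows up to 0.466%, 2.22% and 0.305%. The log2 change was -3.27 ± 0.585 (SE, limma adjusted p = 0.0103), in a tissue in which 27% of 538 edited sites were called lower. With 0 edited reads in E861A this site passed the edited limit through WT alone, so that no other direction was possible, and the offset sets the size, which was -6.43 with an offset of 0.001 and -1.50 with 0.05. The adjusted p was 0.172 on untransformed levels, 0.248 with the quasi-binomial model and 0.0714 with the replicate number as a block. The call was lost without E861A replicate 1, 2 or 3 (adjusted p 0.0580, 0.0570 and 0.0558), and no fit was possible without WT replicate 1 or 3. WT replicate 2 had no value at this site.

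The Gria3 R/G site in kidney had a log2 change of -2.29 ± 0.736 (SE, limma adjusted p = 0.0777), where 17.1% of 532 sites were called lower. Without kidney WT replicate 1 it was -2.95 and called (limma adjusted p = 0.0485). In BM it was -0.17, with an interval of -2.87 to 2.54 (limma adjusted p = 0.897), which turned to 0.38 without E861A replicate 1. In thymus it was 0.92, with an interval of -0.98 to 2.83 (limma adjusted p = 0.3935, 0% called lower). Liver had 4.44 (interval -1.465 to 10.3, limma adjusted p = 0.3425, 9.75% called lower) over 2 libraries of each genotype, and its Leu neighbour -1.84 (limma adjusted p = 0.482). Small intestine had -7.97 (interval -12.25 to -3.70, limma adjusted p = 0.559, 0% of 413 sites called lower), also over 2 of each. The site in small intestine was called without WT replicate 3 (limma adjusted p = 1.668e-10) or without E861A replicate 3 (4.711e-13), although neither of these libraries was read more than 100 times at the site and its log2 change stayed at -7.97. Whether the effect of the genotype differed between brain and another tissue was tested by an interaction contrast for 17 combinations of site and tissue. No combination passed an adjusted p of 0.05 in limma, and 4 had an unadjusted p under 0.05. Over all sites the interaction passed the adjusted threshold at 2.99% for BM, 1.77% for spleen, 0.454% for thymus, 1.41% for liver, 1.76% for kidney, 0.492% for small intestine and 0.231% for heart. An unadjusted p under 0.05 was found at 11.3%, 9.81%, 8.96%, 10.6%, 12.9%, 5.41% and 5.2% of sites in the same order. The 4 were the Gria3 R/G site in kidney and in small intestine, and the intronic site in spleen and in thymus.

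Outside brain the intronic Gria3 site was edited in a few WT libraries. It was at 48.8% of 531 reads in small intestine WT replicate 1, with a Wilson 95% interval of 44.6% to 53.0%, and at 1.99% of 201 in kidney WT replicate 2. In E861A libraries of the other tissues it did not exceed 0.693%, the level in spleen E861A replicate 1.

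Besides the 9 sites, 14 member positions exceeded 1% in at least 1 library, 11 of them in a single library. The highest values were 3.59% of 725 reads at an intronic Gria3 position in kidney WT replicate 3, 2.70% of 1665 at a Ser-to-Gly position of Gria2 in liver WT replicate 3, and 2.63% of 114 at another intronic Gria3 position in heart WT replicate 2. In brain a Gln-to-Arg position of Gria2, 3 bases from the Q/R adenosine, was at 1.55% of 8637 reads in WT replicate 1 and at 0.236% to 0.760% in the other 5 libraries. A Tyr-to-Cys position of Gria4 reached 1.40% of 1925 reads in brain E861A replicate 1 and at most 0.282% in the others. The Glu position of Gria4 at 4432800 of chromosome 9, a synonymous site, was above 1% in 4 of 9 libraries, up to 1.87% in BM WT replicate 3.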

How the data were processed

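The 48 mmPCR-seq libraries comprised 3 per genotype in each of 8 tissues; groups came from the sample labels, and liver, which the growth protocol in the labels leaves out, is named in the sample labels and was kept. For each library the authors deposited the count of reads covering each of 48715 positions and the count of edited reads, without normalization, and the fraction of edited reads. The submitters' processing notes name STAR, SAMtools and mm9; versions are not given in the sources used here. The deposited fraction was recomputed from the counts and did not differ beyond rounding. Every position carries A on its annotated strand in NCBIM37.

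A site entered a comparison if 2 of the 3 replicates of each group had over 100 reads there, and counted as edited with a level above 0.01 in any group. Tests used limma 3.58.1 in R 4.3.3 (eBayes with a trend, offset 0.01) over all edited sites of the libraries compared, with a threshold of 0.05; replicates were weighted equally. Coverage and the order of levels were tested by exact permutation in Python 3.11.15 with SciPy 1.17.1, and hairpins predicted with RNAfold 2.7.2. The site test was tested on simulated data. Exon ends are from the GENCODE annotation of NCBIM37.

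Named are the member sites edited in brain, other member sites above 0.01 in any library, and the 2 nearest sites of other genes per recoding site. The members and lists were chosen with earlier results of these data known. Alternatives were other coverage minimums, edited limits, offsets and models, the replicate block and each library left out. Merged tables of coverage and levels over all libraries were not used here.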

Additional observations from a re-analysis of the deposited data

Results flagged for a closer look

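At the Gria3 R/G site, among libraries with more than 100 reads, E861A lay above WT in liver (2 against 2) and below it in small intestine (2 against 2), kidney and spleen. The remaining libraries of liver and small intestine with fewer reads went against these directions, with 26 of 29 reads edited in liver WT replicate 1, 3 of 19 in liver E861A replicate 1 and 39 of 39 in small intestine E861A replicate 3. The interaction contrast (log2, SE) was 6.725 ± 2.15 between liver and kidney, 12.4 ± 3.89 between liver and small intestine, and 4.83 ± 2.02 between liver and spleen, where the levels differed by -0.38 percentage points. That spleen difference came from 4 edited reads of 931, 5 of 659 and 4 of 627 in WT, against 4 of 1502, 2 of 660 and 1 of 850 in E861A. Outside brain the share of all sites whose genotypes did not overlap was not counted.

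At the intronic Gria3 site all E861A libraries lay below WT in brain and BM and above it in spleen. The contrast between spleen and BM was 3.64 ± 0.681 (log2, SE), and between spleen and brain 3.64 ± 1.32. In spleen the difference rested on few edited reads, with 3 of 433 and 1 of 455 in E861A against 1 of 503, 0 of 594 and 1 of 566 in WT, so the contrasts mainly restate the differences in BM and brain, where 2 WT libraries carried a value. All of these pairs of tissues were picked because their directions were opposite, and no p-value is given for them.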

How the results depend on the processing

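In brain no member site was called under any alternative except 2: the study's criterion called 1, the Gria2 R/G site, and the fit over all 48 libraries called 1, the Gria3 intronic site, among 217 called sites of all genes. The sign of the log2 change turned for the Gria3 Leu site without WT replicate 1, at -0.19 (range 0.49 to -0.19 over the libraries left out), and for the Gria4 R/G site without WT replicate 3, at 0.24 (range -0.77 to 0.24).
The 1 genotype call in the other tissues became 0 with more than 500 reads, with all 3 replicates required, with the quasi-binomial model and with the replicate block, 2 with an edited limit of 0.05 or an offset of 0.05, and 4 with the fit over all 48 libraries, which called 828 sites of all genes against 328. On untransformed levels the count stayed at 1 but the site changed, from the intronic site in BM (adjusted p = 0.172) to the R/G site in small intestine (0.0207). With 1 replicate number left out of every tissue at once the count was 0 to 1. The Gria3 R/G change in BM turned to 0.056 with an offset of 0.001 and ranged from -0.88 to 0.38 with 1 library left out.
The 7 calls of WT brain against other tissues became 3 with more than 500 reads, 4 with no edited limit, 1 on untransformed levels, 0 with the quasi-binomial model and 0 with the replicate block, and were 1 to 7 with 1 replicate number left out of brain or of every other tissue at once. Whether a replicate number marks the same mouse across tissues is not said in the labels, and the numbers were not used as pairs outside the replicate block. In brain same-numbered deviations of WT and E861A correlated at 0.0273, 0.0112 and 0.0849 over 631 sites. In no comparison were all 3 over 0.1, which does not settle whether libraries of different tissues came from the same mice. The interaction gave 0 calls under every alternative run.
Taken as the maximum over positions, the coverage ratio of E861A to WT was 0.590 in place of 0.683 at 1 Gria2 stretch without an edited site and 0.865 in place of 0.730 at the Gria3 R/G stretch. No step in the order of levels passed 0.05, and none could with 5 libraries, where the smallest possible p was 0.0625. The order changed when WT replicate 3 was left out. The cause was not tested for any of these changes. Outside brain most member sites had more than 100 reads in 1 or 2 libraries per tissue or in none, which limits what could be compared.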
